A study of Mus musculus with 24 samples.

Results

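Cytochrome c oxidase, complex IV of the mitochondrial respiratory chain, holds several nuclear-encoded subunits that exist as a muscle or otherwise tissue-restricted form and a ubiquitous form. H3K27Ac, acetylation of histone H3 at lysine 27, marks active promoters and enhancers and was read here over 4 such isoform pairs, Cox6a2 and Cox6a1, Cox7a1 and Cox7a2, Cox8b and Cox8a, and Cox4i2 and Cox4i1. The 8 genes were taken by symbol from the 27179 genes of the deposited table, and all 8 were present and tested. They were chosen by their log2 levels in heart against the other organs, in the same libraries, so every value of the 8 genes that sets heart against other organs is a description and carries no test.

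Mouse brain, heart, kidney and liver were each preserved as FFPE, fixed in 10% formalin and embedded in paraffin, with chromatin extracted at 95 °C for 20 min, or as Frozen, flash frozen and then crosslinked in 1% formaldehyde for 30 min. Ultrasound from a PIXUL instrument sheared the chromatin, which was immunoprecipitated with an antibody against H3K27Ac. The labels list 16 H3K27Ac samples and 8 inputs, and the table holds 8 columns, 1 for each organ and preservation, without replicate numbers. No column could be tied to replicate 1, replicate 2 or a pool of both, and the inputs were not analysed here. No source used here gives the strain, sex and age of the mice or which columns share an animal, so a difference between mice cannot be told apart from one of preservation.

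The 8 libraries held between 4404789 and 6164562 counts. Mitochondrial genes took 12.7% to 36% of the counts in FFPE libraries, highest in heart, and 4.52% to 5.62% in Frozen libraries. Markers of each organ's own cells stood highest in that organ: the median of 10 cardiomyocyte markers was 5.93 in heart FFPE and 6.34 in heart Frozen (log2 CPM, where CPM is the count scaled to the library size), against 2.99 to 4 in the other 6 libraries. A level is set only against levels of the same gene in other libraries, since no source used here gives the length over which each gene was counted. In whole organs, fewer cells that carry the mark and less mark per cell cannot be told apart.

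As background, complex IV passes electrons from cytochrome c to oxygen. Its catalytic core is encoded by mitochondrial DNA, and the small nuclear-encoded subunits surround that core and adjust its activity and stability. In rodents the heart and skeletal muscle forms of subunits VIa, VIIa and VIII are encoded by Cox6a2, Cox7a1 and Cox8b, and brown fat also uses Cox7a1 and Cox8b. Their ubiquitous partners, often called liver forms, are encoded by Cox6a1, Cox7a2 and Cox8a. Subunit IV has the general form Cox4i1 and the form Cox4i2, known from lung and from oxygen-sensing and vascular mural cells.

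Promoters were read from RefSeq, which had an entry for 5 of the 8 genes, Cox7a1, Cox8b, Cox6a1, Cox7a2 and Cox8a, each a window of 300 bases around an annotated start site in GRCm38.p6, most of it upstream. The pairs of subunits VIII and VIIa are shown because the muscle and the ubiquitous promoter of each pair differ in CpG dinucleotides, a feature that played no part in the choice of genes. CpG dinucleotides are in capitals, and each sequence runs 5′ to 3′ on the strand of the gene. Cox8b lies at chr7:140900397-140900696 on the minus strand and Cox8a at chr19:7217567-7217866 on the minus strand, while Cox7a1 lies at chr7:30183921-30184220 on the plus strand and Cox7a2, at a start site inside its annotated span, at chr9:79759804-79760103 on the minus strand.
Cox8b: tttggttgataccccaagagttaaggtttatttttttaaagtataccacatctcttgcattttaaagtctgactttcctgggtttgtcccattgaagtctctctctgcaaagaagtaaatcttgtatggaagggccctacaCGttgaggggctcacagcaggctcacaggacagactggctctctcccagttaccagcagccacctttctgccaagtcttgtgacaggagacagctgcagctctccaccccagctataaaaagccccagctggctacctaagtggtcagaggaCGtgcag
Cox8a: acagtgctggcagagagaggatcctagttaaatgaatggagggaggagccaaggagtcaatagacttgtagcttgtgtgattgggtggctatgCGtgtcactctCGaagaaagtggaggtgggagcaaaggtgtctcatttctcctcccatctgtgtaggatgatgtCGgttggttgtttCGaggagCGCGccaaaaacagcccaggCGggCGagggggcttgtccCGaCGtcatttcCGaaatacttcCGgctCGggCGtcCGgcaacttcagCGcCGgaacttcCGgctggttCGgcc
Cox7a1: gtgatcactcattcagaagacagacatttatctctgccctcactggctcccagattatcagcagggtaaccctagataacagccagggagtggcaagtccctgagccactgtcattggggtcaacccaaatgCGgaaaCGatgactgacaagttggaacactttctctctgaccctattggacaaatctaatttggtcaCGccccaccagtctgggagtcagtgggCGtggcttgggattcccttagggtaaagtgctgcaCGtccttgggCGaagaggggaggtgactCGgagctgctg
Cox7a2: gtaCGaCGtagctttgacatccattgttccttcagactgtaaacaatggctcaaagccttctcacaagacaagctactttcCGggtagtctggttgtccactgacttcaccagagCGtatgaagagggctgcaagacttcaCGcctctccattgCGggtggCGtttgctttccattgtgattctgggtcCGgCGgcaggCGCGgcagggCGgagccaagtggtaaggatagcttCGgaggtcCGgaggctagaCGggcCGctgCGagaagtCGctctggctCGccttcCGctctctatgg

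The muscle promoters held fewer CpG than the ubiquitous ones. Cox8b had 2 CpG in 300 bases and Cox7a1 had 7, against 19 in Cox8a, 20 in Cox7a2 and 32 in Cox6a1. Over 32851 RefSeq mouse promoters of that length the median was 7 CpG and the middle 50% ran from 3 to 20. GC content was 48.3% for Cox8b and 53% for Cox7a1, against 56% for Cox8a, 56.7% for Cox7a2 and 63% for Cox6a1. Some short motifs were also searched on both strands. The TATA box letters TATAAA were found in the Cox8b window alone among the 5, starting at base 5 after the start site, and in 13.6% of all promoters. The ETS letters CCGGAAG were found in Cox6a1 and, at 2 places, in Cox8a, and in 8.86% of all promoters. The NRF1 motif was found at 2 places in Cox6a1 and in 4.6% of all promoters. The E-box letters CANNTG, which 72.3% of promoters hold, were found in Cox8b, Cox7a1, Cox7a2 and Cox8a. The MEF2 motif, held by 3.69% of all promoters, and the estrogen-related receptor letters AAGGTCA, held by 4.72%, were in none of the 5 windows. A match is a match of letters and was not tested as a binding site.

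**Figure D1:**
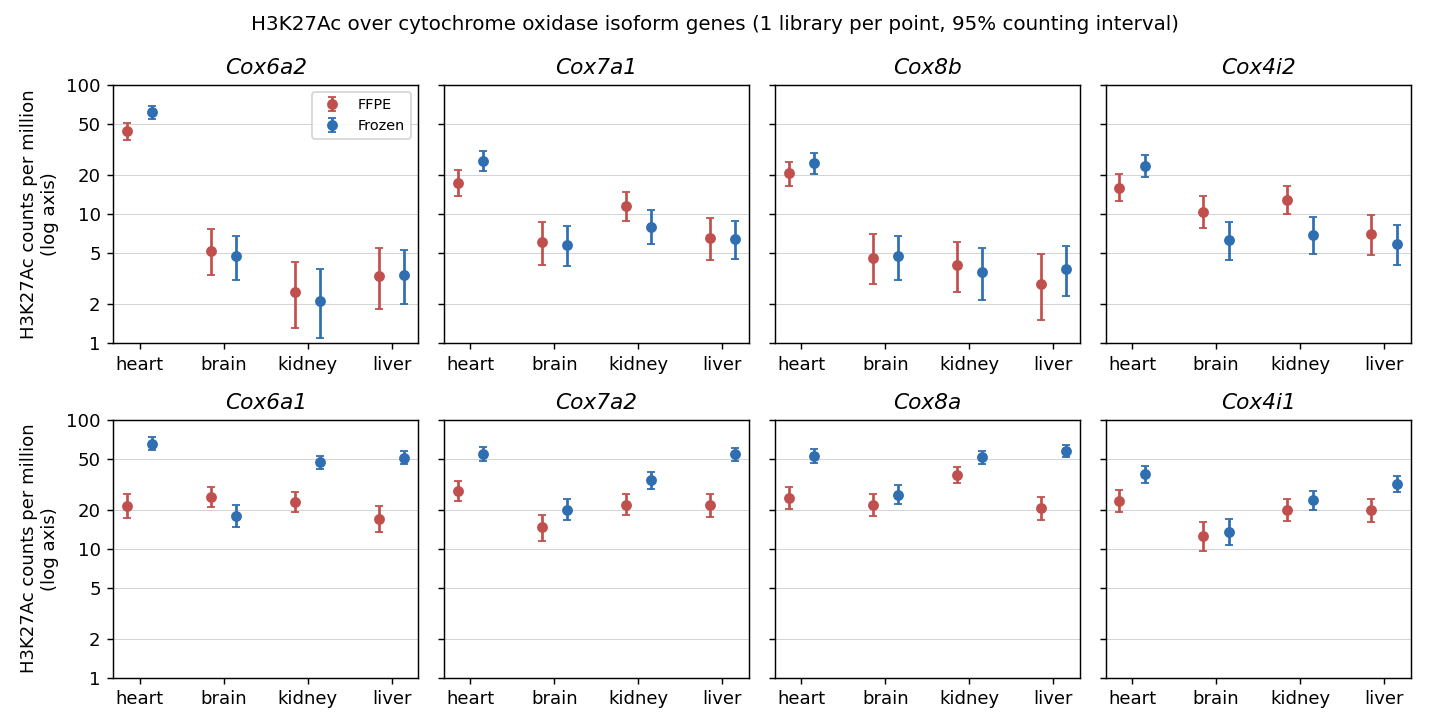
H3K27Ac level in CPM on a log axis for the muscle and alternative isoforms (top row) and their ubiquitous partners (bottom row), in heart, brain, kidney and liver. Each point is 1 library, FFPE in red and Frozen in blue, and bars are 95% Poisson intervals that cover counting error only. Cox6a2 runs from 2.12 to 61.2 CPM, and the FFPE points of Cox6a1 in heart, kidney and liver lie below the Frozen points.

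Cox6a2, which encodes the muscle form of subunit VIa, set heart apart most widely among the 8 genes. It stood at 5.45 in heart FFPE and 5.94 in heart Frozen, against 2.41 and 2.25 in brain, 1.36 and 1.15 in kidney, and 1.76 and 1.78 in liver, FFPE before Frozen (log2 CPM). Both heart libraries lay far above the other 6, and the order heart, brain, liver, kidney was the same in both preservations. The heart libraries held 188 and 279 counts, whereas the kidney libraries held 13 and 12. The heart level was 8.4 times that of brain in FFPE (exact 95% interval 5.52 to 13.3) and 13.1 times in Frozen (8.8 to 20.2). Among brain, kidney and liver, the Poisson intervals of neighbours in the order overlapped in each preservation.

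Cox6a2 lies on chromosome 7 from 128205435 to 128206366 in GRCm38 and overlaps Itgad, which encodes an integrin alpha subunit. Itgad was 0.99 above the mean of the other organs in heart FFPE and 1.13 in heart Frozen (log2 difference), while Cox6a2 was 3.61 and 4.21 above. No source used here says how reads in the overlap were assigned. The nearest genes on either side were the noncoding 4931431B13Rik, 2107 bases away, and 9130023H24Rik, 28085 bases away. In heart FFPE and heart Frozen 4931431B13Rik was 2.4 and 1.09 above the mean of the other organs, at levels of 1.54 and 0.51 (log2 CPM). The differences of 9130023H24Rik were -0.34 and -0.19.

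Cox8b, which encodes the muscle form of subunit VIII, showed a like pattern at lower counts. It stood at 4.38 in heart FFPE and 4.64 in heart Frozen, against 2.23 and 2.25 in brain, 2.03 and 1.86 in kidney, and 1.56 and 1.92 in liver, FFPE before Frozen (log2 CPM). The heart libraries, with 89 and 113 counts, did not overlap the others, which held 13 to 27. The excess of heart over the mean of the other organs was 2.44 in FFPE and 2.63 in Frozen (log2 difference). The 3 other organs had overlapping Poisson intervals. Its neighbour Psmd13, a proteasome subunit gene 300 bases away, was -0.09 and 0.26 from the mean of the other organs in heart FFPE and heart Frozen.

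Cox7a1, which encodes the muscle form of subunit VIIa, had a smaller heart excess. It stood at 4.13 in heart FFPE and 4.7 in heart Frozen, against 2.62 and 2.54 in brain, 3.55 and 3.01 in kidney, and 2.74 and 2.69 in liver, FFPE before Frozen (log2 CPM). Heart was highest in each preservation, yet kidney FFPE came close: the heart to kidney ratio was 1.5 in FFPE (exact 95% interval 1.06 to 2.14) and 3.25 in Frozen (2.29 to 4.69). The excess over the mean of the other organs was 1.17 in FFPE and 1.95 in Frozen (log2 difference). Capns1, the gene of the small calpain subunit, 904 bases from Cox7a1, was 0.58 and 1.03 above the other organs in heart FFPE and heart Frozen.

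Cox4i2, the alternative form of subunit IV, stood at 4.01 in heart FFPE and 4.57 in heart Frozen, against 3.39 and 2.66 in brain, 3.7 and 2.81 in kidney, and 2.83 and 2.56 in liver, FFPE before Frozen (log2 CPM). In Frozen tissue heart stood highest, at 3.43 times the kidney level (exact 95% interval 2.36 to 5.08). In FFPE tissue the ratio to kidney was 1.24 with an interval of 0.875 to 1.76, so the order of heart and kidney was not resolved within counting error. Both intervals cover counting error only, and neither is a test. Cox4i2 overlaps Bcl2l1, a regulator of cell death, on chromosome 2. Bcl2l1 was 0.26 above the other organs in heart FFPE and 1.1 above in heart Frozen (log2 difference), and its part in the Cox4i2 values was not tested.

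**Figure D2:**
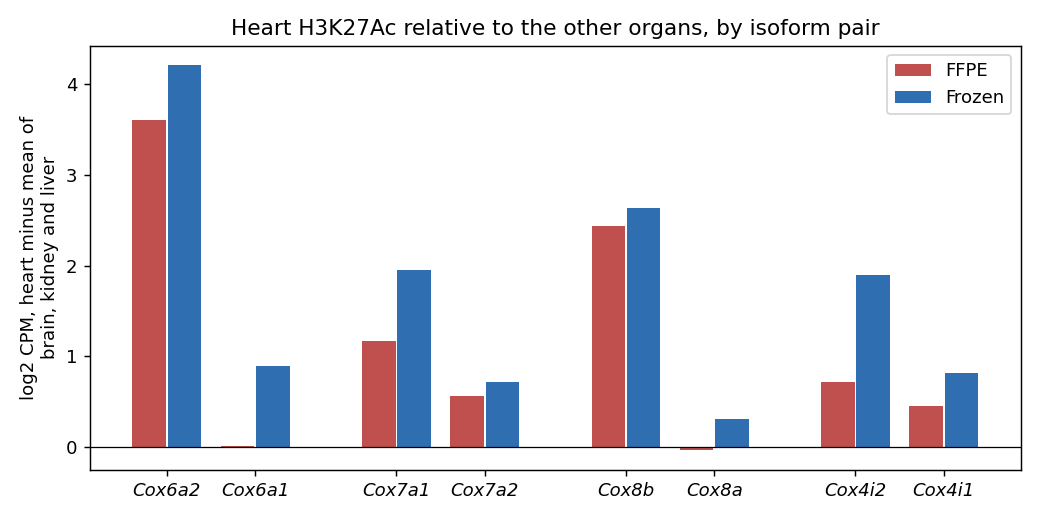
Difference in log2 CPM between heart and the mean of brain, kidney and liver for each isoform gene, FFPE in red and Frozen in blue, with the muscle or alternative form left of its ubiquitous partner. Bars start at 0 and rest on 1 heart library each. Cox6a2 reaches 3.61 in FFPE and 4.21 in Frozen, while Cox6a1 lies at 0.01 and 0.89.

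The ubiquitous partners differed less between heart and the other organs. Cox6a1 was 0.01 above the mean of the other organs in heart FFPE and 0.89 in heart Frozen (log2 difference). Cox7a2 was 0.56 and 0.72 above, Cox4i1 0.45 and 0.81, and Cox8a -0.04 and 0.31. Heart was not the highest organ for Cox6a1 in FFPE, where brain led, nor for Cox8a, where kidney led in FFPE and liver in Frozen. Within each pair the heart excess of the muscle form was larger than that of its partner. The gap was 3.6 in FFPE and 3.32 in Frozen for subunit VIa, 2.48 and 2.32 for subunit VIII, and 0.61 and 1.23 for subunit VIIa (difference of log2 differences). For subunit IV it was 0.26 and 1.09.

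The genes most like each restricted form over the 8 libraries were found by Pearson's r of log2 CPM among 24105 genes with a symbol and at least 100 counts, as a description over libraries that differ in depth and in part share an organ. For Cox6a2 they were 1700060C20Rik (r = 0.991), the homeobox gene Meox2 (0.989), Pln, which encodes the calcium pump inhibitor phospholamban (0.985), Jcad (0.985) and the Z-disc gene Ldb3 (0.984). For Cox8b they were Ccdc85b (0.993), Jcad (0.993), Ldb3 (0.992), Atg9b (0.991) and Lsp1 (0.99). Jcad and Ldb3 were thus in both sets of 5. Cox8b itself ranked 7 for Cox6a2, with r = 0.981. Cox7a1 was closest to the TGF-beta co-receptor gene Tgfbr3 (0.993), Filip1l (0.992), Ehd4 (0.992), the laminin gene Lamb2 (0.991) and Arap3 (0.991), and ranked 785 for Cox6a2 with r = 0.822. Cox4i2 was closest to the semaphorin receptor gene Plxnd1 (0.98), H13 (0.978), Scarf1 (0.976), Ppcdc (0.973) and Ift122 (0.97). H13 lies on chromosome 2 from 152669422 to 152708668, 45248 bases from Cox4i2. The ubiquitous partners had r of 0.008 to 0.424 with Cox6a2. The heart levels in these same libraries chose the 8 genes, so r among the 8 follows in part from that choice and carries no test.

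Cell type markers were read beside the heart values, in the limma comparison of heart with the mean of the other organs, in which 16.7% of 26944 genes were called, 9.42% higher and 7.31% lower, at a Benjamini-Hochberg adjusted p under 0.05. Of 10 cardiomyocyte markers 9 were higher, with the myosin gene Myh6 at 3.33 ± 0.20 (log2 difference, SE) and the troponin gene Tnni3 at 3.10 ± 0.30. Of 12 mural cell markers 7 were higher, among them the pericyte genes Higd1b at 1.37 ± 0.37 and Pdgfrb at 1.02 ± 0.23. Rgs5 at 0.55 ± 0.35, Cspg4 at 0.35 ± 0.225 and Myh11 at 0.05 ± 0.20 did not pass. Nor did Tagln at -0.55 ± 0.26 and Cnn1 at -0.46 ± 0.30. The median of the 12 mural cell markers was 5.59 in heart FFPE and 5.72 in heart Frozen (log2 CPM), against 4.21 to 4.82 in the other libraries. The list holds Des, a gene that cardiomyocytes also use, at 1.94 ± 0.25. Of 12 skeletal muscle markers 1, Myog, was higher and none was lower. Their median was 4.53 in heart FFPE and 4.4 in heart Frozen (log2 CPM), within the 3.45 to 4.96 of the other libraries. Of 8 brown fat markers 1 was higher, Ebf2, and 3 were lower, Elovl3, Zic1 and Adrb3. The others did not pass, Ucp1 at -0.81 ± 0.36, Dio2 at -0.44 ± 0.23, Cidea at 0.585 ± 0.341 and Prdm16 at 0.367 ± 0.205. The median of the 8 brown fat markers was 4.1 in heart FFPE and 3.98 in heart Frozen (log2 CPM), against 4.22 to 4.76 in the other libraries. Of 6 adipocyte markers, Lpl and Fabp4 were higher, both of which are also active in heart. The others did not pass, Plin1 at 0.70 ± 0.265, Adipoq at -0.22 ± 0.35, Lep at -0.12 ± 0.29 and Cfd at -0.55 ± 0.37. No marker of any of these lists was at 0 in any library. The part of mural cells in the Cox4i2 and Cox7a1 values was not tested.

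Complex IV genes outside the 8 were set against the other organs in the same comparison. In it 9.42% of all genes were higher and 7.31% lower. Of 12 other nuclear-encoded subunits, none passed by limma and 4 had an unadjusted p under 0.05, as did 29.6% of all genes, and their median was 0.32 (log2 difference), against -0.039 over all genes tested. Of 23 assembly factors 2 were higher, a share near that of all genes. They were the copper chaperone gene Cox17 at 1.16 ± 0.27 and Higd1a, a hypoxia-induced complex IV factor, at 0.80 ± 0.23. None of the 3 mitochondrially encoded subunits passed by limma, and none had an unadjusted p under 0.05. Over these 3 lists the count of 2 became 0 when heart Frozen was left out, 1 when kidney Frozen was, and 4 when brain FFPE or liver Frozen was. Of 9 genes listed as muscle forms of other energy genes, all 9 were higher in heart. The list is of cardiac genes and was chosen with earlier results of these libraries known. It holds the adenine nucleotide carrier Slc25a4 at 2.03 ± 0.23, the oxygen store myoglobin (Mb) at 2.79 ± 0.31 and the phosphoglycerate mutase form Pgam2 at 1.89 ± 0.31. It also holds the calcium pump gene Atp2a2, at 0.87 ± 0.23, which has no partner among the listed forms of other tissues. Of 7 forms used in other tissues, the phosphorylase gene Pygb was higher at 1.26 ± 0.21 and the creatine kinase gene Ckmt1 lower at -1.03 ± 0.28. Among 14 regulators of respiratory genes, 4 were higher, Mef2a at 1.15 ± 0.20, Hif1a at 0.80 ± 0.22, Chchd2 at 0.67 ± 0.23 and Mef2d at 0.62 ± 0.20. None was lower, and 10 had positive and 4 negative values. The 4 were Esrra at -0.24 ± 0.22, Esrrg at -0.14 ± 0.24, Tfam at -0.16 ± 0.22 and Cxxc5 at -0.32 ± 0.23. Ppargc1a at 0.12 ± 0.21 and Nrf1 at 0.26 ± 0.21 did not pass either.

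Preservation was compared over the 4 organs, a contrast that did not choose the 8 genes. The ubiquitous isoforms Cox6a1, Cox7a2 and Cox8a fell in FFPE tissue. Of all genes tested 3.91% were called in either direction and 1.91% lower, and of the 8 isoform genes 3 were lower and none was higher. The median of the 8 was -0.27 (log2 difference), against 0.018 over all genes.

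Cox6a1, the ubiquitous form of subunit VIa, stood at 4.66 in brain FFPE against 4.18 in brain Frozen, 4.44 in heart FFPE against 6.02 in heart Frozen, 4.54 in kidney FFPE against 5.55 in kidney Frozen, and 4.1 in liver FFPE against 5.67 in liver Frozen (log2 CPM). Heart, kidney and liver were lower in FFPE, and brain was higher. The FFPE libraries held 93 counts in heart, 122 in kidney and 78 in liver, against 296, 264 and 288 in Frozen. The fitted difference was -0.92 ± 0.24 (log2, SE), with limma adjusted p = 0.0237. The call ended when a heart or liver library was left out, at -0.70, or a kidney library, at -0.89, and the difference was -1.39 when a brain library was left out. Quantile normalization also ended it, at -0.82 with limma adjusted p = 0.0738.

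Cox7a2, the ubiquitous form of subunit VIIa, stood at 3.87 in brain FFPE against 4.33 in brain Frozen, 4.82 in heart FFPE against 5.77 in heart Frozen, 4.47 in kidney FFPE against 5.08 in kidney Frozen, and 4.44 in liver FFPE against 5.75 in liver Frozen (log2 CPM). It was lower in FFPE in 4 of 4 organs, each with a counting interval of the ratio under 1. The fitted difference was -0.84 ± 0.21 (log2, SE), with limma adjusted p = 0.0142. The annotated span of Cox7a2 overlaps Tmem30a, a lipid flippase subunit gene on chromosome 9.

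Cox8a, the ubiquitous form of subunit VIII, stood at 4.46 in brain FFPE against 4.72 in brain Frozen, 4.64 in heart FFPE against 5.72 in heart Frozen, 5.22 in kidney FFPE against 5.67 in kidney Frozen, and 4.37 in liver FFPE against 5.85 in liver Frozen (log2 CPM). It was lower in FFPE in 4 of 4 organs, with the widest gap in liver, where the FFPE to Frozen ratio was 0.357 (exact 95% interval 0.281 to 0.451). The fitted difference was -0.82 ± 0.21 (log2, SE), with limma adjusted p = 0.017. In brain the ratio was 0.83 with an interval of 0.641 to 1.07.

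Cox4i1, the general form of subunit IV, stood at 3.65 in brain FFPE against 3.77 in brain Frozen, 4.56 in heart FFPE against 5.25 in heart Frozen, 4.34 in kidney FFPE against 4.57 in kidney Frozen, and 4.32 in liver FFPE against 4.99 in liver Frozen (log2 CPM). All 4 organs lay lower in FFPE, but the fitted difference of -0.43 ± 0.22 did not pass, with limma adjusted p = 0.343 and a 95% interval of -0.88 to 0.02.

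**Figure D3:**
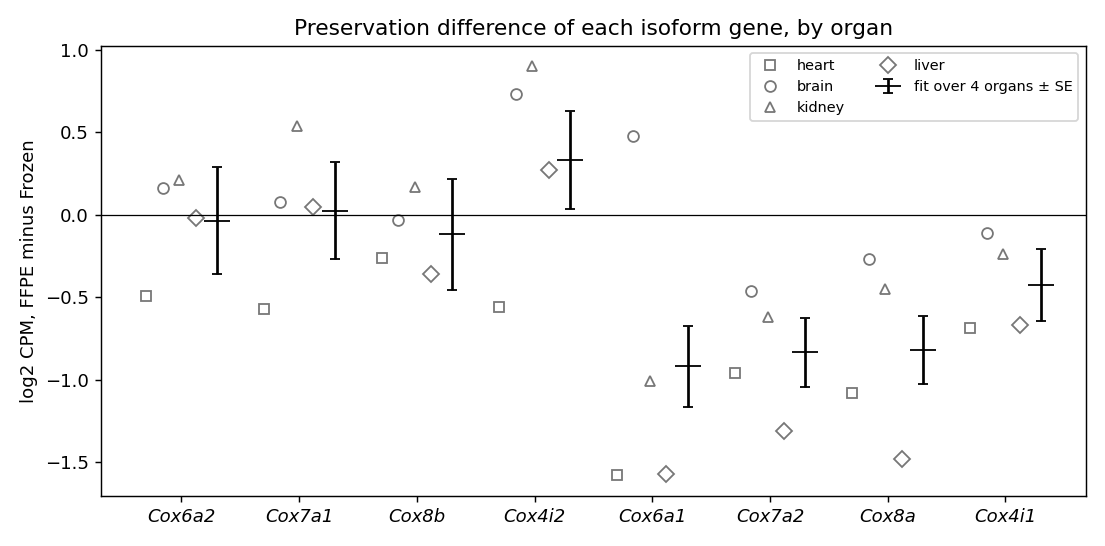
Difference in log2 CPM between FFPE and Frozen for each isoform gene, with 1 open symbol per organ and, in black, the fitted difference over 4 organs with its SE. For Cox7a2, Cox8a and Cox4i1 every organ lies below 0, and for Cox6a1 brain alone lies above 0.

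The muscle and alternative forms did not pass in this comparison. Cox6a2 had a fitted difference of -0.04 ± 0.33 (log2, SE; 95% interval -0.70 to 0.63), Cox7a1 of 0.02 ± 0.29 (-0.58 to 0.62), Cox8b of -0.12 ± 0.34 (-0.80 to 0.57) and Cox4i2 of 0.33 ± 0.30 (-0.27 to 0.94). These intervals are wide, and a p that misses the threshold does not show that the forms kept their level. In heart, where the muscle forms had most counts, the FFPE to Frozen ratio was 0.714 for Cox6a2 (exact 95% interval 0.59 to 0.862), 0.673 for Cox7a1 (0.497 to 0.907), 0.834 for Cox8b (0.625 to 1.11) and 0.677 for Cox4i2 (0.493 to 0.924). The ratios of their partners in heart were 0.333 for Cox6a1 (0.261 to 0.421), 0.515 for Cox7a2 (0.411 to 0.642), 0.472 for Cox8a (0.372 to 0.596) and 0.618 for Cox4i1 (0.479 to 0.795). The FFPE difference of the first gene of a pair exceeded that of its partner in 4 of 4 organs for subunits VIIa, VIII and IV, and in 3 of 4 for subunit VIa, where brain went the other way by -0.33. The narrowest margins of these 3 subunits were 0.39 for VIIa in heart, 0.24 for VIII in brain and 0.13 for IV in heart. In heart the intervals of Cox7a1 and Cox7a2 overlapped, as did those of Cox4i2 and Cox4i1. In brain Cox8b held 22 and 27 counts. The differences within pairs were described and not tested.

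Of 12 other nuclear-encoded subunits 1 fell in FFPE, Cox5b, a zinc-binding subunit, at -0.64 ± 0.19 with limma adjusted p = 0.0498, and 11 of 12 had negative values with a median of -0.34. Of 23 assembly factors 2 fell, Higd1a at -1.06 ± 0.20 and Higd2a at -0.66 ± 0.19, and 19 had negative values. Over all genes 47.8% were negative and 1.91% were called lower. Of 14 regulators 1 was lower and none was higher. It was Chchd2, whose protein acts on the COX4I2 gene in human cells, at -0.80 ± 0.20. Cox4i2 itself, at 0.33 ± 0.30, did not pass, and a link between these genes was not tested. None of the 9 genes listed as muscle forms and none of the 7 other forms of energy genes passed by limma, with 0 and 3 of them at an unadjusted p under 0.05, as were 16% of all genes.

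Mitochondrial DNA carries no histones, so counts over its genes are not H3K27Ac. The mitochondrially encoded COX2 was higher in FFPE by 2.06 ± 0.56 (log2, SE), with limma adjusted p = 0.0276, whereas COX1 at 1.24 ± 0.99 and COX3 at 1.11 ± 0.47 did not pass. With CPM taken outside mitochondrial genes, the fitted differences were -0.81 for Cox6a1, -0.72 for Cox7a2 and -0.71 for Cox8a, and all 3 passed. The spread of log2 CPM over genes was also wider in Frozen than in FFPE for heart, 1.99 in FFPE and 2.32 in Frozen (SD over genes), and for liver, 1.95 and 2.30. After every library was set to 1 median and 1 spread, Cox7a2 and Cox8a passed, at -0.76 and -0.74, and Cox6a1 at -0.82 did not, with limma adjusted p = 0.0541. All 3 calls ended without heart or without liver, where the differences were -0.60 to -0.80, and with a prior variance without trend. Without kidney, Cox8a alone passed.

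**Figure D4:**
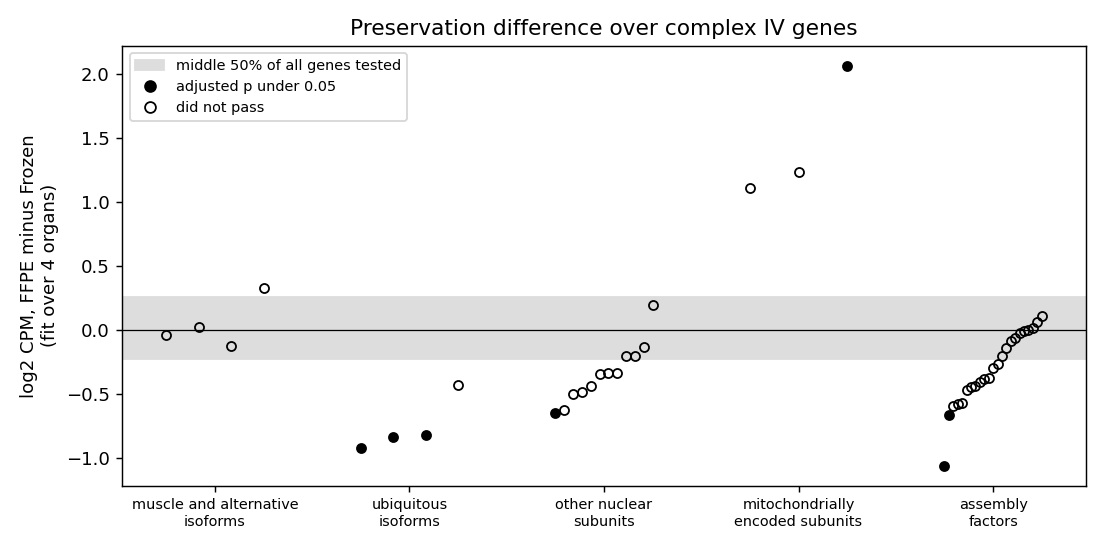
Fitted FFPE minus Frozen difference in log2 CPM for genes of complex IV, by group, where each point is 1 gene and filled points passed at an adjusted p under 0.05. The grey band is the middle 50% of all genes tested, -0.22 to 0.26. The 4 ubiquitous isoforms lie below the band and the mitochondrially encoded subunits above it.

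Brain, kidney and liver were compared pairwise over both preservations, contrasts that in this balanced design are orthogonal to heart against the mean of the other organs. Cox7a2 was lower in brain than in liver, at -0.99 ± 0.29 (log2, SE) with limma adjusted p = 0.0104, and Cox4i1 likewise, at -0.95 ± 0.31, with limma adjusted p = 0.0214. These 2 of 8 stand against 26.3% of all genes called between brain and liver and 15.0% called lower, so the share was near the background. The other ubiquitous forms lay in the same direction, Cox6a1 at -0.47 ± 0.35 and Cox8a at -0.52 ± 0.29, and did not pass. Both values moved with 1 library. Cox6a1 passed at -1.40 when brain FFPE was left out and stood at 0.47 when brain Frozen was, and Cox8a passed at -0.96 when liver FFPE was left out and stood at -0.08 when liver Frozen was. The calls of Cox7a2 and Cox4i1 ended when brain Frozen or liver Frozen was left out, where the differences were -0.68 to -0.79. They also ended with a prior that had no trend. The Cox4i1 call ended as well with CPM outside mitochondrial genes, at -0.71.

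Between brain and kidney no isoform gene passed by limma, where 10.9% of all genes did and 6.23% were lower in brain, and 4 had an unadjusted p under 0.05, Cox6a2, Cox7a2, Cox8a and Cox4i1, against 21.2% of all genes. Cox6a2 was at 1.08 ± 0.46 (log2, SE), with kidney libraries of 13 and 12 counts. The 4 ubiquitous forms lay lower in brain, at -0.63 to -0.86. Cox8a, at -0.86 ± 0.29 with limma adjusted p = 0.0556, and Cox4i1, at -0.75 ± 0.31, passed after quantile normalization and with equal median and spread. Cox8a also passed when brain FFPE was left out, at -1.23, or when either liver library was, with the difference still -0.86. Cox6a1 passed at -1.56 when brain FFPE was left out and stood at 0.31 when brain Frozen was. Between kidney and liver no isoform gene passed by limma, against 11.8% of all genes and 7.05% lower, and none had an unadjusted p under 0.05, as 22.9% of all genes did. The 95% interval there was -0.55 to 0.86 for Cox6a1 and -1.46 to 0.42 for Cox6a2.

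Of 12 other nuclear-encoded subunits 6 were lower in brain than in liver and none was higher, where 15.0% of all genes were lower. Against kidney, where 6.23% of all genes were lower in brain, 2 of 12 were lower, Cox7c at -1.05 ± 0.32 and Ndufa4l2 at -0.98 ± 0.29. Of 23 assembly factors 1 was lower there, Coa3 at -1.44 ± 0.31. Cox7b2 and Cox8c, at 0.70 and 0.19 against liver and 1.00 and 0.27 against kidney, did not pass. The 6 lower than in liver were Ndufa4l2, a hypoxia-inducible relative of Ndufa4, at -2.64 ± 0.29, Cox7a2l, which joins respiratory supercomplexes, at -1.04 ± 0.31, Cox6b1 at -1.01 ± 0.33, Cox7c at -1.01 ± 0.32, Ndufa4 at -0.99 ± 0.29 and Cox5b at -0.79 ± 0.27. Of 23 assembly factors 6 were lower in brain than in liver and none was higher, led by the copper-handling gene Coa6 at -1.55 ± 0.27. Of the 9 genes listed as muscle forms of other energy genes 5 were higher in brain than in liver, where 11.3% of all genes were higher. Among them were Slc25a4 at 2.11 ± 0.28 and the fatty acid binding gene Fabp3 at 1.93 ± 0.38, while 4 did not pass, Atp2a2 lying at -0.54 ± 0.28. In the same comparison 4 of 12 skeletal muscle markers were higher in brain, among them the skeletal actin gene Acta1 at 3.11 ± 0.36, and 4 of 10 cardiomyocyte markers, among them Mybpc3 at 1.57 ± 0.27. The cardiomyocyte markers Tnni3 at -0.16 ± 0.37, Nppb at -0.25 ± 0.48 and Pln at -0.10 ± 0.26 lay lower in brain and did not pass. Myl2 at 0.47, Myl7 at 0.20 and Tnnt2 at 0.78 did not pass either. The part of the muscle markers in these values was not tested.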

How the data were processed

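H3K27Ac ChIP-seq of mouse organs was analysed from 1 deposited table. The submitters' processing notes name limma, featureCounts, Bowtie2 and build mm10, with no versions or settings. The deposited values are log2 values. Taken as counts with 0.5 added, 100% of them in every column came out whole (tolerance 0.001) after scaling by the authors to an effective library of 0.749 to 1.22 times the total, so they are log2 CPM. These counts served for depth, for exact Clopper-Pearson 95% intervals of ratios and for Poisson 95% intervals, which cover counting error only. Tests used the deposited log2 values of 26944 genes, after removal of 235 genes at 0 in all columns, in limma 3.58.1 (R 4.3.3) with lmFit and eBayes with a trended prior, a model of organ and preservation with 3 residual degrees of freedom and organs as replicates, two-sided, at a Benjamini-Hochberg adjusted p under 0.05 over all genes. With 1 column per group, p-values reflect only how these libraries vary, which may hold technical and animal differences. The members, gene lists and alternatives were chosen with earlier results of these data known. The rule for named genes took all 8 members, up to 6 called genes per list, and the 5 genes most like each restricted isoform. Neighbours and promoters came from RefSeq tables of GRCm38.p6, the assembly of mm10. Alternatives were quantile normalization, equal median and spread, CPM outside mitochondrial genes, a pseudocount of 2 in place of 0.5, a mean of at least 10 counts, no variance trend and leaving out each column. No source used here says how reads with several positions were handled.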

Additional observations from a re-analysis of the deposited data

Results flagged for a closer look

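Cox6a1 went opposite ways in different organs between FFPE and Frozen. The FFPE to Frozen ratio was 1.4 in brain (exact 95% interval 1.07 to 1.83), whereas it was 0.333 in heart, 0.496 in kidney and 0.335 in liver, each with an interval under 1. The difference between organs was not tested, as each organ has 1 library per preservation.

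Cox4i2 was higher in FFPE in brain, with a ratio of 1.67 (exact 95% interval 1.07 to 2.64), and in kidney, with a ratio of 1.87 (1.24 to 2.85), and lower in heart, with a ratio of 0.677 (0.493 to 0.924). In liver the ratio was 1.2 (0.715 to 2.02). This difference between organs was not tested either.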

How the results depend on the processing

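No paired analysis was possible because the columns carry no replicate numbers. Mean heart differences of the 8 genes over both preservations kept their sign under the 4 alternatives of scale and pseudocount. The number of isoform genes called between FFPE and Frozen was 3, 2 after quantile normalization or at the same median and spread, 0 without a variance trend, and 0 to 3 over the fits that leave out a library. Between brain and liver it was 2, 1 with CPM outside mitochondrial genes, 0 without a variance trend, and 0 to 3 leaving out a library. Between brain and kidney it was 0, 2 after quantile normalization, 2 at the same median and spread, and 0 to 2 leaving out a library. Complex IV genes outside the isoforms called in heart numbered 2, 0 without a variance trend and 0 to 4 leaving out a library. Leaving out a library leaves the other library of that organ assumed to vary like the rest.

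Sign changes met only differences that had not passed with all libraries in the fit. With CPM outside mitochondrial genes, Cox6a2 turned to 0.076 in FFPE against Frozen and Cox7a1 to 0.10 in brain against liver. After quantile normalization Cox7a1 turned to -0.072 in FFPE and Cox8b to -0.052 in kidney against liver. At the same median and spread, Cox7a1 turned to -0.062 in FFPE, Cox4i2, Cox6a2 and Cox8b to -0.072, -0.00078 and -0.056 in brain against liver, and Cox8b to -0.24 in kidney against liver. Leaving out a library, FFPE differences ran from -0.12 to 0.11 for Cox6a2 and -0.15 to 0.22 for Cox7a1. Brain minus kidney ran from -0.60 to 0.15 for Cox4i2 and -1.56 to 0.31 for Cox6a1, brain minus liver from -1.40 to 0.47 for Cox6a1, and kidney minus liver from -0.27 to 0.59 for Cox6a1 and -0.10 to 0.78 for Cox8a. The cause was not tested. CPM outside mitochondrial genes moved library medians by -0.044 to 0.38 (log2). Over all genes, the FFPE calls numbered 1054, 369 without a variance trend and 501 to 1969 leaving out a library, and those in heart 4508, 1373 and 872 to 5251. Calls between brain and kidney numbered 2945, 361 without a variance trend, 4465 after quantile normalization, 4730 at the same median and spread and 857 to 3379 leaving out a library. Calls between brain and liver numbered 7092, 3839 without a variance trend and 3597 to 7385 leaving out a library, and those between kidney and liver 3168, 947 and 1223 to 3624. Depth limits Cox6a2 and Cox8b most, with 12 to 27 counts in libraries other than heart.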

Other observations

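Of 23 assembly factors 2 were lower in kidney than in liver and none was higher, a share near the 7.05% of all genes called lower there, Coa7 at -1.63 ± 0.26 (log2 difference, SE) with limma adjusted p = 2.4e-05 and Coa5 at -0.77 ± 0.25 with limma adjusted p = 0.0425. Ndufa4l2 was lower in kidney than in liver, at -1.66 ± 0.29, 1 of 12 other subunits. Of 14 regulators 1 was higher and 2 were lower in brain than in kidney, where 4.70% of all genes were higher and 6.23% lower. The neuronal and muscle factor gene Mef2c was higher, at 1.41 ± 0.26. The nuclear receptor gene Esrra, at -1.04 ± 0.27, and its coactivator gene Ppargc1a, at -0.85 ± 0.26, were lower.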
